A study of Mus musculus with 4 samples.

Results

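The subject is the breakdown of the branched-chain amino acids leucine, isoleucine and valine, read through 10 genes chosen by name: Bcat1, Bcat2, Bckdha, Bckdhb, Dbt, Bckdk, Ppm1k, Ivd, Mccc1 and Mccc2. Each had 1 probe set, and all 10 were found among the 19505 genes with a symbol. The samples were hearts of outbred ICR (Jcl:ICR) mice that received, on postnatal day 1, either phosphate-buffered saline (PBS) or a viral vector preparation carrying Tbx6, a T-box transcription factor. Hearts were taken 7 or 30 days after injection, with 1 Clariom S array per injection and day, 4 in all. By the protocol the injection went beneath the skin of the back, whereas other fields speak of the heart. No empty vector was given to the controls, so vector and gene cannot be told apart. The sources used here do not give the vector's promoter, the hearts pooled per RNA sample or the animals' sex.

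Branched-chain amino acids are first transaminated, in the cytosol by BCAT1 or in mitochondria by BCAT2, to branched-chain keto acids. The mitochondrial branched-chain keto acid dehydrogenase complex then removes a carboxyl group in the irreversible, committed step. The complex is switched off when the kinase BCKDK phosphorylates its E1 alpha subunit and switched on again by the phosphatase PPM1K. Beyond it the 3 amino acids part ways, and isovaleryl-CoA dehydrogenase (IVD) and the biotin-dependent methylcrotonyl-CoA carboxylase (MCCC1 and MCCC2) carry leucine onward to acetyl-CoA and acetoacetate. The heart is among the tissues with an active keto acid dehydrogenase, and it burns these amino acids as a minor fuel.

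Values are log2 expression as deposited, so 1 unit is 2-fold. A reading is called at background when it is at or below the highest of the 23 background probe sets of its array, which stood between 5.77 and 6.05. The median over all genes was 5.30 to 5.34 on the 4 arrays, and the highest value on every array was 19.93. All 9 cardiomyocyte markers were above background on every array, with several near the top of the scale. The Tbx6 probe set read 3.70 with PBS and 4.14 with Tbx6 at day 7, and 3.57 and 3.66 at day 30, all at background. It therefore gives no check of the labels, and the sources used here do not say whether its probes cover the vector's sequence. The array after PBS at day 7 stood apart in the airway lining markers: 4 of 7 were above background there, against 0 of 7 after Tbx6 at day 7, 0 of 7 after PBS at day 30 and 1 of 7 after Tbx6 at day 30. It was also the highest array for the brown fat gene Ucp1 (11.92, against at most 8.34 on the others) and for the erythroid gene Alas2 (12.52, against at most 10.73). Other markers of these cell types did not follow. The adipocyte genes Adipoq (9.83), Cidec (7.88) and Retn (7.34) were highest after Tbx6 at day 30. Fabp4 read nearly the same after PBS and Tbx6 at day 7 (17.10 and 17.06). The erythroid gene Slc4a1 was highest after Tbx6 at day 7 (7.97, against 7.72 after PBS).

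The comparison of days asked how the pathway differed between 7 and 30 days after injection, with the arrays of both injections as the observations of each day. Of the 10 genes, 8 rose between day 7 and day 30, by 4.10-fold (Mccc2) to 9.06-fold (Ppm1k). They were the mitochondrial transaminase, every subunit specific to the dehydrogenase complex, its phosphatase and the 3 leucine enzymes. The kinase Bckdk and the cytosolic transaminase Bcat1 did not pass the test. Across all 9753 genes tested, 14.2% were called higher at day 30 and 12.1% lower, by limma's additive model at a Benjamini-Hochberg adjusted p of 0.05. The median change was 2.79 on the log2 scale over the 10 genes and -0.02 over all genes tested.

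**Figure D1:**
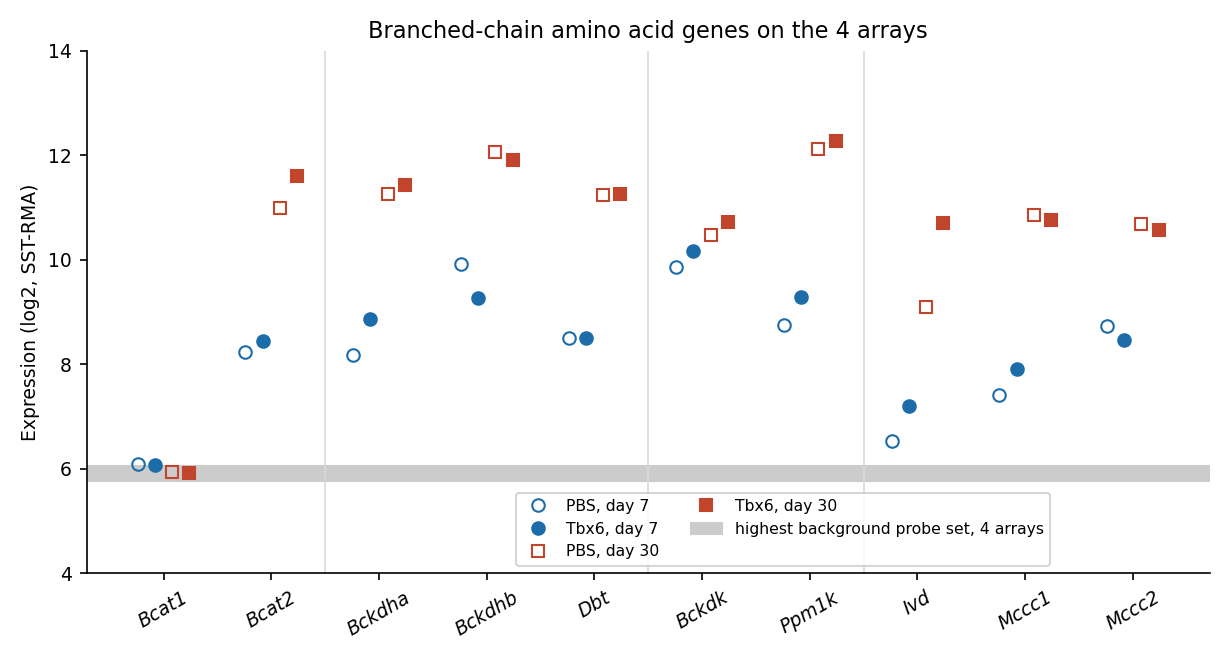
Log2 expression of the 10 genes on the 4 arrays (blue circles, day 7; red squares, day 30; open symbols, PBS; filled symbols, Tbx6), with the grey band spanning the highest background probe set of the 4 arrays. Both day 30 arrays lie above both day 7 arrays for every gene shown but Bcat1, which lies at the band, and the gap is small for Bckdk (0.31).

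The transaminases parted. Bcat2, the mitochondrial enzyme, read 8.23 with PBS and 8.45 with Tbx6 at day 7, and 10.99 and 11.60 at day 30. The readings of the days did not overlap, and the change was 2.95 (SE 0.25), or 7.75-fold, with an adjusted p of 0.000153 by limma. Bcat1, the cytosolic enzyme known from brain and from growing and embryonic cells, read 6.10 and 6.08 at day 7 and 5.94 and 5.91 at day 30, again in the order PBS, Tbx6. It was at background on the PBS array of day 30 and barely above it on the others, so a fall could hardly have been seen. Its change of -0.16 had a 95% interval of -0.72 to 0.39 and an adjusted p of 0.65 by limma.

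The 3 subunits that belong to the dehydrogenase complex alone rose together. Bckdha, the E1 alpha subunit that carries the phosphorylation sites, read 8.17 with PBS and 8.88 with Tbx6 at day 7, and 11.27 and 11.43 at day 30. Bckdhb, the E1 beta subunit, read 9.92 and 9.26 at day 7 and 12.06 and 11.92 at day 30. Dbt, the E2 core that carries the lipoyl groups and transfers the acyl group to coenzyme A, read 8.51 and 8.50 at day 7 and 11.25 and 11.26 at day 30. For each of them the days were apart on every array, and the Dbt readings of a day differed least between injections. The changes were 2.82 for Bckdha (SE 0.26, adjusted p of 0.000229 by limma), 2.40 for Bckdhb (SE 0.26, 0.000429) and 2.75 for Dbt (SE 0.24, 0.000186), or 7.09-, 5.27- and 6.73-fold.

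The kinase and the phosphatase of the complex did not change alike. Ppm1k, the phosphatase that reactivates the complex, read 8.75 with PBS and 9.29 with Tbx6 at day 7, and 12.12 and 12.28 at day 30. Its change of 3.18 (SE 0.25, adjusted p of 0.000111 by limma) was the highest of the 10 genes. Bckdk, the kinase that inactivates it, read 9.86 and 10.17 at day 7 and 10.48 and 10.72 at day 30. Both day 30 readings of Bckdk were above both of day 7, as for 32.7% of all genes tested, but by 0.31. Its change of 0.58 (SE 0.24) had an adjusted p of 0.11, and its 95% interval, 0.03 to 1.14, lay below that of Ppm1k, 2.61 to 3.75. The difference between these changes was not tested. Transcript levels say nothing of the phosphorylation of the complex, which was not measured.

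The leucine steps rose as well. Ivd, which oxidises isovaleryl-CoA, read 6.53 with PBS and 7.20 with Tbx6 at day 7, and 9.09 and 10.71 at day 30. Mccc1, the biotin-carrying subunit of the carboxylase, read 7.41 and 7.91 at day 7 and 10.86 and 10.76 at day 30. Mccc2, its partner subunit, read 8.73 and 8.47 at day 7 and 10.70 and 10.57 at day 30. No day 7 reading reached a day 30 reading in any of the 3, and the spread within a day was widest for Ivd at day 30. The changes were 3.04 for Ivd (SE 0.29, adjusted p of 0.000264 by limma), 3.15 for Mccc1 (SE 0.26, 0.000142) and 2.03 for Mccc2 (SE 0.24, 0.000712).

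Among the 9753 genes, 0.42% had a higher day change than Ppm1k, 0.451% than Mccc1, 0.574% than Ivd and 0.636% than Bcat2. For Bckdha, Dbt, Bckdhb and Mccc2 this share was 0.779%, 0.841%, 1.36% and 2.36%, against 20.8% for Bckdk and 59.0% for Bcat1. In 5 of the 10 genes (Bcat2, Bckdha, Dbt, Ppm1k and Mccc1) the lower day 30 array was at least 4-fold above the higher day 7 array, as in 1.43% of all genes tested. Bckdhb, Ivd and Mccc2 came near that, with gaps of just under 2, 1.89 and 1.84 on the log2 scale. Within the PBS arrays alone the 8 genes differed between days by 1.96 (Mccc2) to 3.45 (Mccc1), and within the Tbx6 arrays alone by 2.10 (Mccc2) to 3.51 (Ivd). All 8 passed the threshold in every alternative fit that kept the 4 arrays. Of these, the mean of probe sets could not change their values, since each gene had 1 probe set. Over 11 alternative fits, which included leaving out each array, the changes of the 8 genes ranged from 1.90 (Mccc2) to 3.85 (Ivd).

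The additive model leaves 1 residual degree of freedom, so its SE values rest largely on variance borrowed from other genes. In whole-heart RNA, a change in the make-up of cells and a change in RNA per cell cannot be told apart. Marker lists moved between the same days. The log2 of the summed fibroblast markers went from 19.11 and 19.15 at day 7 to 18.51 and 18.50 at day 30, and that of the endothelial markers from 16.68 and 16.57 to 15.67 and 15.78. Macrophage markers went from 10.66 and 10.87 to 12.28 and 12.56, and cardiomyocyte markers, close to the top of the scale, from 22.46 and 22.47 to 22.54 and 22.55. Such sums follow their highest genes. Dcn, the highest fibroblast marker, changed by -0.08, but Lum by -0.98, Col1a2 by -2.98, Col3a1 by -3.32 and Col1a1 by -3.57. Mrc1, the highest macrophage marker, changed by 1.54, Csf1r by 1.69, C1qa by 1.95, C1qb by 2.97 and Adgre1 by 0.29, not past the test. The log2 of the 2 measured erythroid markers summed went from 12.57 and 10.93 to 9.63 and 9.96, most of it from Alas2. Of the 2, Slc4a1 changed by -0.81, not past the test, and Alas2 was called lower (-2.09, adjusted p of 0.0136 by limma). Without the PBS array of day 7 its change was -1.20, and without the PBS or the Tbx6 array of day 30 the call was lost (adjusted p = 0.111 and 0.0588). Adipocyte markers went from 17.15 and 17.07 to 16.47 and 16.72, most of it from Fabp4. By the deposited values Fabp4 changed by -0.50, Ucp1 by -2.74, Cidec by 0.25 and Adipoq by 1.63, none past the test. Retn, at background at day 7, rose by at least 1.32 (limma adjusted p of 0.000435 before readings were raised). All 6 skeletal muscle markers were at background on every array. The part of these shifts in the change of the 8 genes was not tested.

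The promoters of genes that move together can be read beside their values. RefSeq (GRCm38.p6) gave promoter windows for 9 of the 10 genes, 12 windows in all, cut here to the 250 bases before the start. Those of Ppm1k, Mccc1 and Ivd are shown because their genes had the highest changes, and that of Bckdk because its gene changed less. They lie at chr6:57535488-57535737 (minus strand, Ppm1k), chr3:36000679-36000928 (minus strand, Mccc1), chr2:118861744-118861993 (plus strand, Ivd) and chr7:127903823-127904072 (plus strand, Bckdk). Each is printed 5′ to 3′ on the strand of its gene, and capitals mark the CCAAT box, read as CCAAT or, on the other strand, ATTGG.
Ppm1k: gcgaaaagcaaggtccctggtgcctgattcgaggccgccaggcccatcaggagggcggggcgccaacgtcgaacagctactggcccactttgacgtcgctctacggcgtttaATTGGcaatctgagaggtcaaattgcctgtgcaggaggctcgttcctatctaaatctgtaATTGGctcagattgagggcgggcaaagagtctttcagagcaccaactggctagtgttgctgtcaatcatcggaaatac
Mccc1: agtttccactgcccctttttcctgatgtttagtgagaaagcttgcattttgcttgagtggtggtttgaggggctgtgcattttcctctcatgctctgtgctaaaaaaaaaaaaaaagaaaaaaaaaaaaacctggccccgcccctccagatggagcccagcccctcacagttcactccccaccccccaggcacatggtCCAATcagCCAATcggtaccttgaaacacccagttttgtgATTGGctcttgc
Ivd: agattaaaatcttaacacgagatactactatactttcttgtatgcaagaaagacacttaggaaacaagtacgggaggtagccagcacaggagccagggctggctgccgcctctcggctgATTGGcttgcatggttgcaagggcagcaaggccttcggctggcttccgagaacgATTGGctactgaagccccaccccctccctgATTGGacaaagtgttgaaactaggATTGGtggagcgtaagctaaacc
Bckdk: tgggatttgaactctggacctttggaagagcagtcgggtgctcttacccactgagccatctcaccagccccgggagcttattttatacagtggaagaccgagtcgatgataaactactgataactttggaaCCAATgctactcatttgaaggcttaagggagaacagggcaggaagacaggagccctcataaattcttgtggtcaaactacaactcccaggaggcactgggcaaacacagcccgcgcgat

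The CCAAT box is a common promoter element bound by the factor NF-Y. It was present in 7 of the 12 windows (Bcat1, Bckdhb, Bckdk, Ivd, Mccc1, Mccc2 and Ppm1k), against 33.8% of all 32851 promoter windows of the same length. Ivd held 4 matches between 23 and 131 bases before the start, Mccc1 held 3 between 12 and 52, and Mccc2 held 3 between 30 and 69. Those of Mccc2 at 33 and 30 overlap in CCAATTGG, which reads as the motif on both strands. At least 3 matches, overlapping ones included, were found in 2.79% of all windows. The cut of 3 equals the counts of Mccc1 and Mccc2 and was applied to no other motif, so this share is no test. The motif was also present once each in Bcat1 and Bckdk, the genes that did not pass the test, so it does not separate them from the genes that rose.

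Other motifs were searched on both strands of the same windows. The CACCC box (CCACCC, the kind of site bound by Krüppel-like factors) was in 3 of the 12 windows, those of Bckdhb, Ivd and Mccc1, against 28.1% of all windows. The GC box (GGGCGG) was in 3, those of Bckdhb, Mccc1 and Ppm1k, against 32.7%, and the E-box (CACGTG) in 1, that of Mccc2, against 6.02%. No window held the ERR half-site TNAAGGTCA (1.14% of all windows), the CRE TGACGTCA (1.55%) or the NRF1 site (GCGC, any base, TGCGC; 3.74%). The same was true of the nuclear receptor elements DR1 and DR4, which repeat AGGTCA after 1 or 4 bases (0.0335% and 0.0152%), and of the glucocorticoid element (AGAACA, 3 bases, TGTTCT; 0.00913%). The ERR, DR1 and DR4 patterns share the letters AGGTCA. These counts describe letters in short windows and not binding.

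The remaining genes of the pathway were read from a list of 34, of which 33 were measured and 32 tested. Of these, 18 rose between day 7 and day 30 and 1 fell, with a median change of 0.81, where 26.3% of all genes tested were called in either direction. Of the 19, 12 passed the threshold in every alternative fit. With day as the model's only term 20 were called, and 12 when the PBS array of day 30 was also left out.

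All 6 genes of the propionyl-CoA steps, where isoleucine and valine join, rose. Mmut, the vitamin B12-dependent methylmalonyl-CoA mutase, rose by 2.06 (SE 0.25, adjusted p of 0.000781 by limma). Mmab, which makes the cofactor of that mutase, was at background on both day 7 arrays and rose by at least 1.77. Pcca and Pccb, the subunits of propionyl-CoA carboxylase, rose 2.64-fold and 2.31-fold.

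Among 5 genes of the valine steps 3 rose. Aldh6a1, the methylmalonate semialdehyde dehydrogenase, read 10.06 with PBS and 10.04 with Tbx6 at day 7, and 13.28 and 13.21 at day 30, the days far apart and the injections close. Its change of 3.19 (SE 0.24, adjusted p of 0.000103 by limma) was as large as that of Ppm1k. Hibadh, the dehydrogenase one step before it, rose by 1.90, and Abat, a transaminase better known for breaking down GABA, by 1.60. Abat lost its call without the PBS array of day 30 (adjusted p = 0.0649).

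Among 7 genes of the isoleucine steps 4 rose, and 2 were called when either PBS array or the Tbx6 array of day 30 was left out. Acadsb, the short/branched-chain acyl-CoA dehydrogenase that stands to isoleucine as Ivd stands to leucine, rose by 1.84 (SE 0.24, adjusted p of 0.00116 by limma), and Echs1, an enoyl-CoA hydratase, by 1.71. Hsd17b10 and Hadhb, which also serve other substrates, rose by 1.02 and 0.87, calls that were lost in 3 and 5 of 11 alternatives (highest adjusted p of 0.0773 and 0.128 by limma).

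At the leucine end, Oxct1 and Auh rose among 3 genes tested. Oxct1, which activates ketone bodies for use as fuel, rose by 2.74 (SE 0.26, adjusted p of 0.000252 by limma). Auh, the hydratase that follows the carboxylase, rose by 1.21 and lost its call without either PBS array (highest adjusted p of 0.0916). Dld, the E3 subunit shared with the pyruvate and oxoglutarate dehydrogenases, rose by 0.84, with an adjusted p of 0.0364 by limma, a call lost in 5 of 11 alternatives (highest adjusted p of 0.128).

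The carriers did not follow. Slc7a5, the cell-surface transporter for large neutral amino acids, read 7.29 with PBS and 7.17 with Tbx6 at day 7 and was at background at day 30, a fall of at least 2.45-fold (limma adjusted p of 0.00332 before readings were raised). The other 5 carriers did not pass the test. Among them, Slc25a44, the mitochondrial carrier of branched-chain amino acids, changed by 0.25 (95% interval -0.32 to 0.81). Of the genes that attach lipoate, Lipt1 and Lipt2 rose by 0.78 each, calls that were lost in 7 and 6 of 11 alternatives. Neither biotin gene was above background on any array.

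**Figure D2:**
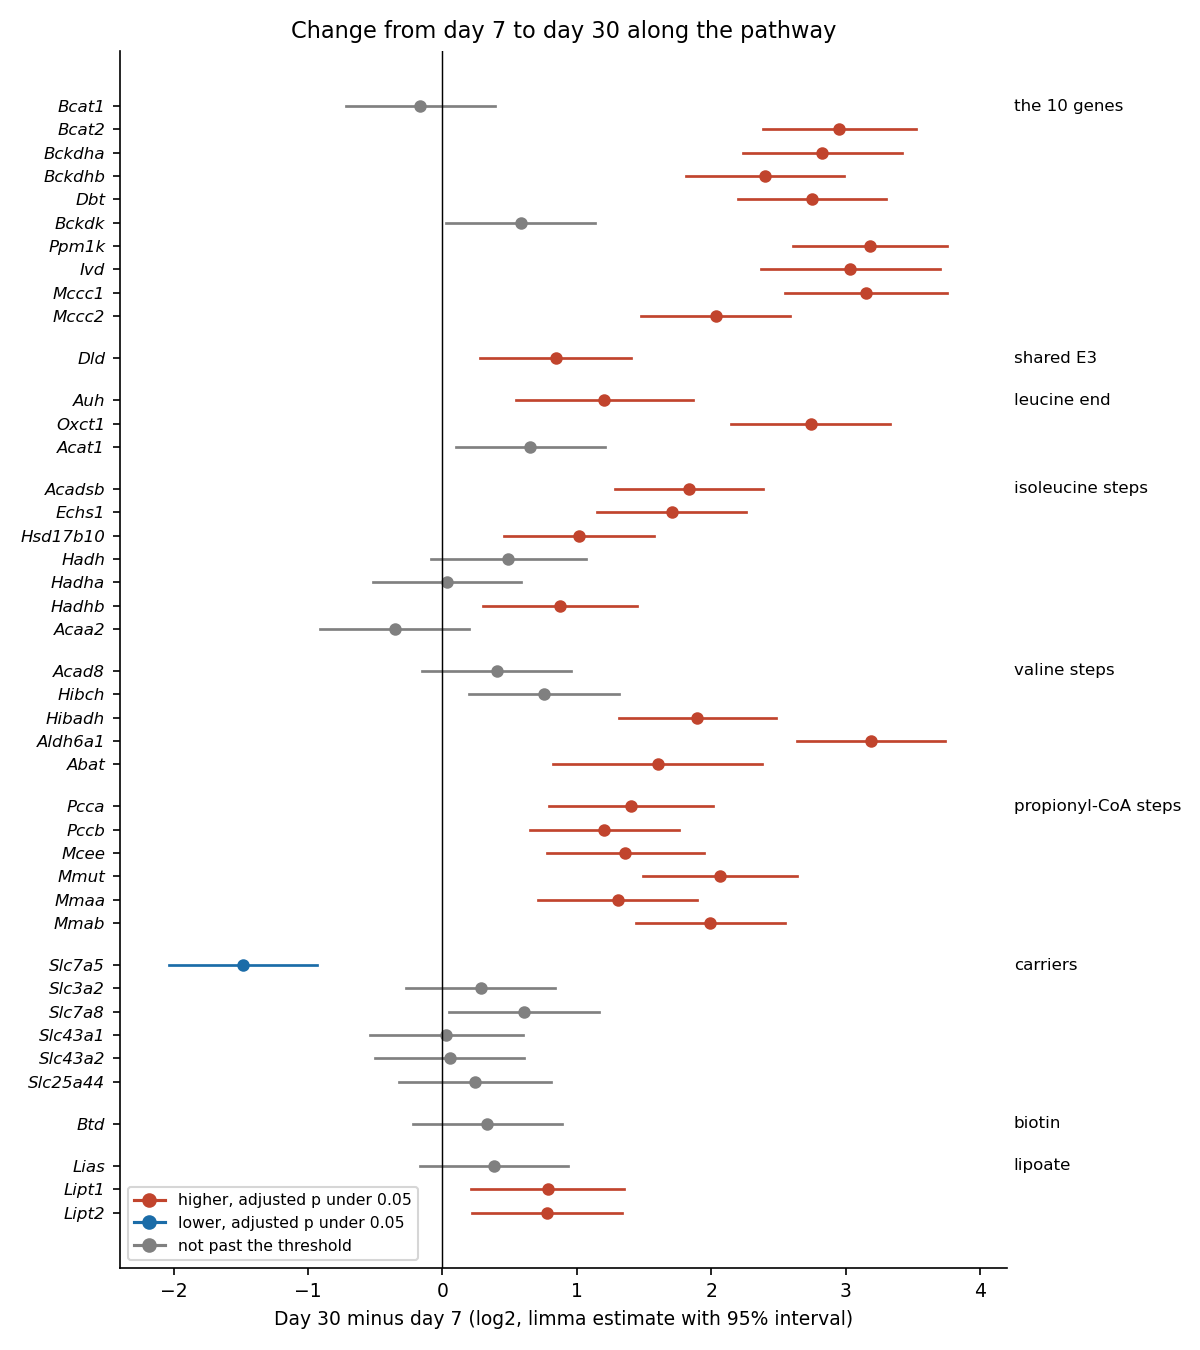
Change from day 7 to day 30 (log2, limma estimate with its 95% interval) for the 10 genes and the 32 other tested genes of the pathway, grouped by step. Red marks genes called higher, blue the 1 called lower (Slc7a5) and grey those not past the threshold; 8 of the 10 genes and all 6 of the propionyl-CoA steps are red.

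The keto acid dehydrogenase has sister complexes for pyruvate and oxoglutarate, which share its E3 subunit and its plan. These lists were added after values had been seen. Of 4 genes specific to the pyruvate complex 3 rose, where 14.2% of all genes tested were called higher. Their changes were 0.63 (Pdhb, not past the test) to 1.29 (Dlat). Ogdh and Dlst of the oxoglutarate complex rose by 1.53 and 1.55. Those of Bckdha, Bckdhb and Dbt lay above these, at 2.40 to 2.82. The difference between the complexes was not tested, and Ogdh and Pdhb read higher on the scale, between 16.91 and 18.79, where differences may be compressed. Pdhx and Dlst read lower on it, between 8.73 and 11.82, and changed by 1.07 and 1.55.

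The kinases and phosphatases of the pyruvate complex belong to the same families as Bckdk and Ppm1k or do the same work. Pdk2, a pyruvate dehydrogenase kinase, rose by 0.99 (SE 0.25, adjusted p of 0.0211 by limma), a call lost in 4 of 11 alternatives. Pdk1 changed by -0.32 and the phosphatase Pdp1 by 0.77, neither past the test. Pdp2, below the expression filter and so not tested, was at background at day 7 and higher by at least 1.24-fold at day 30, and Pdk3 was at background on every array.

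Pdk4, the kinase that rises when fat is burned, was called lower on the strength of 1 array. It read 12.63 with PBS and 12.69 with Tbx6 at day 7, and 10.14 and 12.37 at day 30. Its change of -1.40 (SE 0.44, adjusted p of 0.0489 by limma) became -0.28 without the PBS array of day 30 (adjusted p = 0.542), and the call was lost in 7 of 11 alternatives.

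The enzyme family of Ivd was read with Acadsb and Acad8 left to the pathway lists. Of 9 other acyl-CoA dehydrogenases 7 rose and 0 fell, where 14.2% of all genes tested were called higher and 12.1% lower. This count came to 3 without the PBS array of day 7, 4 without that of day 30 and 3 without the Tbx6 array of day 30, with day as the model's term. Acad11 and Acad12 rose by 3.18 and 2.40, beside 3.04 for Ivd. Acads, the short-chain enzyme, rose by 1.17, a call lost in 2 of 11 alternatives, and Gcdh, the glutaryl-CoA dehydrogenase of lysine breakdown, by 1.23. Acadl, the long-chain enzyme, changed by -0.05 (95% interval -0.61 to 0.51).

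Of the known regulators, Klf15 and Ppara rose. Klf15, a Krüppel-like factor described as an activator of branched-chain amino acid breakdown in the heart, was at background at day 7 and read 7.21 with PBS and 8.08 with Tbx6 at day 30, a rise of at least 3.64-fold (limma adjusted p of 0.00025 before readings were raised). Ppara, a fatty acid receptor that drives mitochondrial oxidation, read 8.35 and 8.13 at day 7 and 9.88 and 9.85 at day 30, a change of 1.62 (SE 0.24, adjusted p of 0.00219 by limma). Ppargc1a, its coactivator, read 15.12 and 15.81 at day 7 and 15.33 and 15.82 at day 30, with a change of 0.11 (95% interval -0.45 to 0.67) whose sign turned under quantile normalisation.

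**Figure D3:**
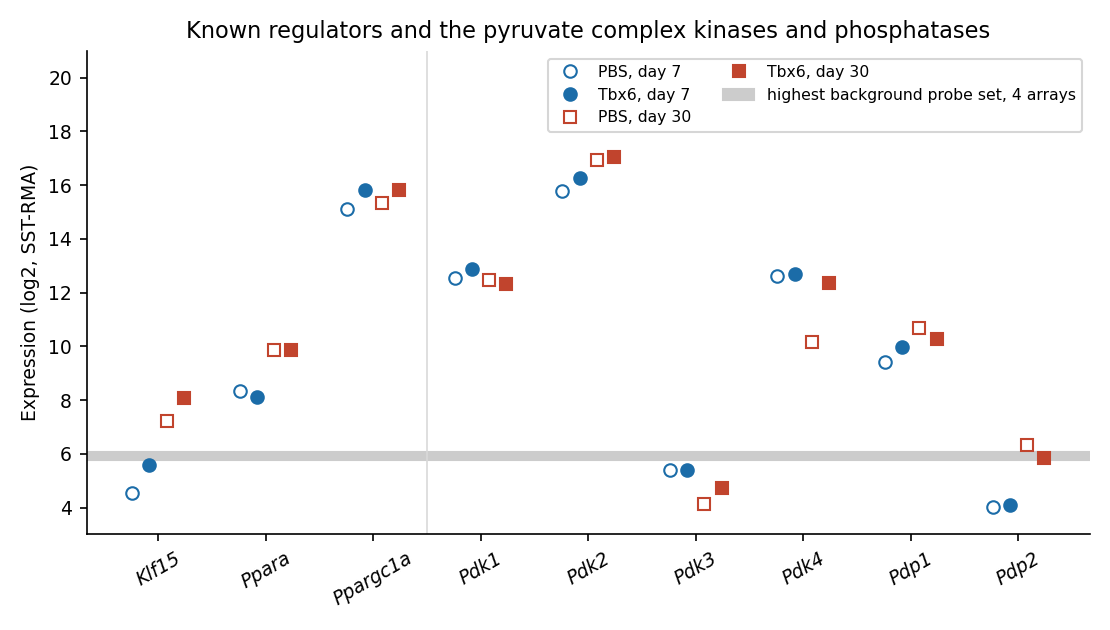
Log2 expression of 3 known regulators and of 6 kinases and phosphatases of the pyruvate complex on the 4 arrays, with symbols and grey background band as in the plot of the 10 genes. Klf15 and Ppara are higher on both day 30 arrays, and the open square of Pdk4 at day 30 (10.14) lies below its 3 other readings.

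The comparison of injections asked whether the pathway differed after the Tbx6 vector. With 1 array on each side, the differences have no replicate check. Ivd was higher after Tbx6 by 0.67 at day 7 and by 1.62 at day 30, or 1.59-fold and 3.07-fold. At day 30 it had the 9th highest difference of the 9753 genes, and at day 7 the 496th. A difference of at least 1.5-fold upward on both days was found in 73 genes, or 0.748%.

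At day 7, 2 of the 10 genes were at least 1.5-fold higher after Tbx6 (Bckdha and Ivd) and 1 lower (Bckdhb), where 15.6% of all genes tested differed that much, 7.23% higher and 8.41% lower. Bckdha differed by 0.70 and Bckdhb, its partner in the E1 enzyme, by -0.65. All day 7 differences, that of Ivd included, are against the PBS array that stood apart in the airway lining markers. The part of this in them was not tested. Ppm1k (0.54) and Mccc1 (0.50) were just inside the 1.5-fold limit of 0.58. At day 30, 2 were higher (Ivd and Bcat2) and 0 lower, against 13.2% of all genes, 7.13% higher and 6.06% lower. Bcat2 differed by 0.61 there and by 0.23 at day 7, while Bckdha and Bckdhb differed by 0.16 and -0.15. On each day 6 of the 10 genes were higher after Tbx6 by any amount, against 47.7% of all genes at day 7 and 50.9% at day 30.

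**Figure D4:**
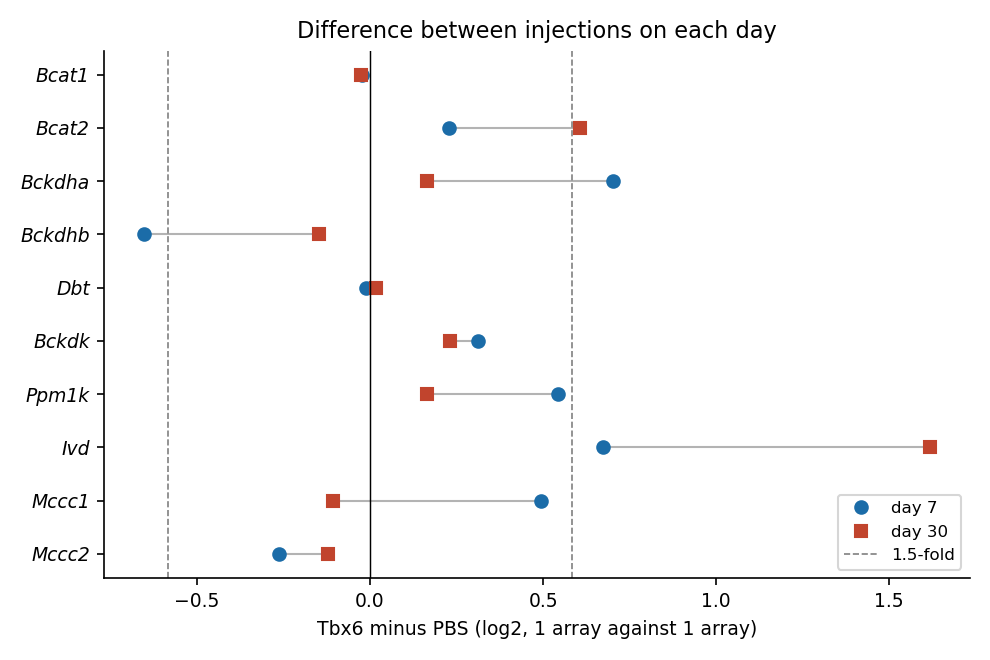
Tbx6 minus PBS on the log2 scale for the 10 genes, 1 array against 1 array, at day 7 (blue circles) and day 30 (red squares), with dashed lines at 1.5-fold. Ivd lies beyond the line on both days (0.67 and 1.62), and no other gene does so on more than 1 day.

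Over both days, limma's additive model called 0 of the 10 genes for injection and 0 of the 9753. At an unadjusted p under 0.05 it had 1 of the 10 (Ivd) and 421 of all genes, or 4.32%. Ivd had a change of 1.15 (SE 0.29, unadjusted p of 0.00389, adjusted p of 1 by limma) and was higher after Tbx6 on both days. The intervals of the others were wide: Bckdk, 0.27, had a 95% interval of -0.28 to 0.83, and Dbt, 0.00264, one of -0.55 to 0.55. Such intervals do not show that these genes were alike after both injections.

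Other values moved with the arrays on which Ivd and Bcat2 were high. At day 30, 3 of 7 measured adipocyte markers were above background after PBS and 5 after Tbx6, and the log2 of their summed level was 16.47 and 16.72, most of it from Fabp4, which blood vessels express too. Adipoq, which encodes adiponectin, read 7.49 and 9.83. Ucp1, which makes brown fat produce heat, was at background with PBS and read 8.34 with Tbx6, at least 2.29 apart, and its deposited difference was the highest of all genes tested. Cidec, which acts at lipid droplets, was likewise at background with PBS and read 7.88 with Tbx6. At day 7 the order was the other way, with Adipoq at 7.98 after PBS and 6.08 after Tbx6 and Ucp1 at 11.92 and 7.60. The same number of adipocyte markers, 4, was above background on each of these arrays, and Ivd was higher after Tbx6. Plin1 and Lep were at background on every array. Klf15 was higher after Tbx6 at day 30 by 0.87, and at day 7 both its readings were at background. Pdk4 was higher after Tbx6 by 2.23 at day 30, the 3rd highest difference of all genes tested, and by 0.06 at day 7. Ppargc1a was higher by 0.49 at day 30 and by 0.70 at day 7. At day 30 Pdk2 differed by 0.11, Ppara by -0.03, Pdk1 by -0.15 and Pdp1 by -0.38. The part of these in the differences of Ivd and Bcat2 was not tested.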

How the data were processed

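RNA of 4 heart samples was measured on 1-colour mouse Clariom S arrays, whose number limits the precision. Per the labels' design text and the submitters' processing notes, the deposited log2 values came from Affymetrix Expression Console 1.4 by SST-RMA, which corrects background, normalises arrays to each other and summarises probes; base 2 is taken from the range of the values. Of 28846 probe sets, 19572 carried 1 symbol, and for 55 genes with several the one with the highest mean was kept. Genes whose mean reached the overall median (5.30) were tested with limma 3.58.1 in R 4.3.3 (injection and day as terms, two-sided, Benjamini-Hochberg adjustment over 9753 genes), and all 10 genes passed this filter. The fit was checked on simulated data with independent noise, which does not show how well the model suits these arrays. Differences between single arrays are sizes without a test. A bound ("at least") is the difference left after readings at background were raised to the highest background probe set. Nothing in the labels says that arrays came from separate litters or days. The genes, lists and motifs were chosen with earlier results of these data known. Genes of other lists were named when called, up to 4 per list and direction, with regulators and pyruvate kinases and phosphatases all named. Beyond this rule, values of Slc25a44, Acadl and Pdhb were given though these genes were not called. Listed genes without a symbol match were not analysed here. Motifs were counted with Python 3.11.15.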

Additional observations from a re-analysis of the deposited data

How the results depend on the processing

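The 8 genes called between days stayed called, and 0 of the 10 were called for injection, under quantile normalisation, median centring, no filter, a filter on background, an intensity trend and the mean of probe sets, and the 8 also with day as the only term. The mean of probe sets could not change the values of the 10 genes, since each had 1 probe set. Leaving out each array in turn, with day as the only term since 3 arrays leave the additive model no residual degree of freedom, kept 8 called. The other pathway genes called then numbered 12 to 17, against 20 with day as the only term on all arrays and 19 in the additive model. All genes called numbered 1248 to 2067, against 2549 and 2562. Counting genes whose day 30 arrays both lay above both of day 7, added after seeing the data, gave 9 of the 10, against 32.7% of all genes tested. At 2-fold instead of 1.5-fold, 0 of the 10 genes differed between injections at day 7 and 1 (Ivd) at day 30. The share of all genes past 2-fold was not counted. The change of Ppargc1a between days turned to -0.16 under quantile normalisation, and ranged from -0.24 to 0.46 when arrays were left out. Ivd ranged from 2.23 to 3.85 between days over its alternatives. No paired analysis was possible because the labels number no replicates, though the additive model compares the injections within each day. With 1 array per group, spread between hearts could not be separated from the injection.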

Other observations

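Among the 9753 genes, those with the profile most like Ivd over the 4 arrays, by the root mean square difference after centring each gene, were Gsta3 (0.20), Adhfe1 (0.23) and P2ry12 (0.32). Adhfe1, a mitochondrial hydroxyacid-oxoacid transhydrogenase, read 9.31 with PBS and 9.86 with Tbx6 at day 7, and 11.67 and 12.88 at day 30, high on the same array as Ivd. Gsta3, a glutathione transferase, and P2ry12 were at background at day 7, so their distances rest partly on such readings. Of the 10 genes the nearest to Ivd was Bcat2 (0.39), with 4 other genes as near or nearer. For Bcat1 the nearest were Sepsecs, Srfbp1 and Rab3il1, with Rab3il1 at background on every array, Srfbp1 on both arrays of day 30 and Sepsecs on the PBS array of day 30. Such readings have no order. In all, 6290 genes were nearer to it than Bckdk, the closest of the 10. With 4 arrays such likeness is loose.

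Of the neighbours of Ivd on chromosome 2, Knstrn, a spindle gene, was higher with Tbx6 by 0.60 at day 7 and at background on both arrays of day 30, where Ivd differed most. Bahd1, on the other side, read 6.58 after PBS at day 7 and was at background on 2 of the other 3 arrays. The genes beside Bcat2 (Hsd17b14 and Fgf21) were at background on every array.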
